A study of Mus musculus with 6 samples.

Results

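Zinc handling in silicotic mouse lung was followed through 6 genes: the metallothioneins Mt1 and Mt2, the metal-sensing transcription factor Mtf1, the zinc exporter Slc30a1 and the zinc importers Slc39a8 and Slc39a14. They were taken by symbol from the mRNA count table, and all 6 were among its 17973 genes. Lung RNA of C57BL/6 mice was sequenced in 6 libraries, 3 per group. The silicosis mice had received silica once into the trachea, 8 mg in 40 µL of sterile saline, and the series text gives sterile normal saline as the comparison; all lungs were snap-frozen after 90 days. The labels number the controls C7, C8 and C9; N129, N136 and N138 are the silica-treated lungs. Nothing says that each library came from a separate mouse, so p-values measure only the spread between these samples. Each mRNA library held between 33698920 and 44000748 counts.

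Metallothioneins are small cysteine-rich proteins that bind zinc, copper and cadmium and so buffer free metal in the cell. When zinc rises, Mtf1 binds metal response elements in promoters and switches on Mt1, Mt2 and Slc30a1. Slc30 proteins move zinc out of the cytosol and Slc39 proteins move it in; Slc39a8 and Slc39a14 also carry manganese, iron and cadmium, and Slc39a14 is known as the importer that inflammation induces in liver.

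Promoters are shown for the 3 of these genes, both metallothioneins and the exporter, that Mtf1 is described as switching on through metal response elements. Each is the 250 bases before a RefSeq start on the plus strand of GRCm38.p6, and capitals mark the core of the metal response element, searched on both strands as TGCACNC or TGCGCNC. Mt2 and Mt1 lie next to each other, 5513 bases apart, and their windows are chr8:94172368-94172617 and chr8:94178839-94179088; that of Slc30a1 is chr1:191906531-191906780.
Mt2: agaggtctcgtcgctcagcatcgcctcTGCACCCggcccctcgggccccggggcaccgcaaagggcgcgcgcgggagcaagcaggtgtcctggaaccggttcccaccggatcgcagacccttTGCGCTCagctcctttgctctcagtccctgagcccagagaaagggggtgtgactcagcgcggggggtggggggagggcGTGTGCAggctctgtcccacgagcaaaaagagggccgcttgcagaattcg
Mt1: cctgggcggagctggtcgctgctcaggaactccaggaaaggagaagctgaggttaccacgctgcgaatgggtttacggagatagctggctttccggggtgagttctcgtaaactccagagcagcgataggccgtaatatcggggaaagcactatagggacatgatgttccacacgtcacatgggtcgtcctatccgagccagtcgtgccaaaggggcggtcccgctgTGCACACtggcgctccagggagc
Slc30a1: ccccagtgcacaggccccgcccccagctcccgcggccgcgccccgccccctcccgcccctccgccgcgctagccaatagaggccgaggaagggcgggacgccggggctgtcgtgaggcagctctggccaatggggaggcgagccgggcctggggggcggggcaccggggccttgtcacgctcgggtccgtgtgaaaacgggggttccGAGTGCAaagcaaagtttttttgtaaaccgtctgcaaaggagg

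The core was found 3 times in the Mt2 window, once in that of Mt1 and once in that of Slc30a1; 21.4% of 32851 mouse promoter windows of this length held at least 1, and 1.26% held 3 or more. With the 50 bases after the start included, the counts were 4 in Mt2, 3 in Mt1 and 2 in Slc30a1, against 25.7% of windows with at least 1. The same 300 bases of Mtf1 held 0, and the pair of Slc39a8 windows held 0 and 1. In those 300 bases the glucocorticoid element, GNACA and TGTNC 3 bases apart, matched once in Mt1 and in 0.475% of all windows, the antioxidant core TGACNNNGC matched once each in Mt2, in Slc30a1 and in 1 Slc39a8 window (12.4% of all), and the Stat motif TTCNNNGAA matched in none of these 5 genes (8.3% of all). The promoter table matched 5 of the 6 genes, all but Slc39a14. A match describes letters and is not evidence of binding.

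Of the 6 genes, 1 changed by the test: the importer Slc39a14 was about 4-fold higher in silicosis, at 3.93 times its control level. Mt1, Mtf1, Slc30a1 and Slc39a8 had lower means in silicosis but did not pass, and Mt2 had too few counts to be tested. Genes were tested by edgeR's quasi-likelihood test with Benjamini-Hochberg adjustment over 15808 mRNAs and a threshold of 0.05. By that rule 15.3% of all tested mRNAs were higher and 16.5% lower, 31.8% together. Beside these shares, 1 called gene of 5, a rise, is not read as a result about the set. Levels are normalised counts (CPM), each count divided by the scaled library size and multiplied by 1e+06, with means ± SD over 3 libraries per group. In bulk lung RNA, fewer cells of a type and less RNA per cell cannot be told apart.

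**Figure D1:**
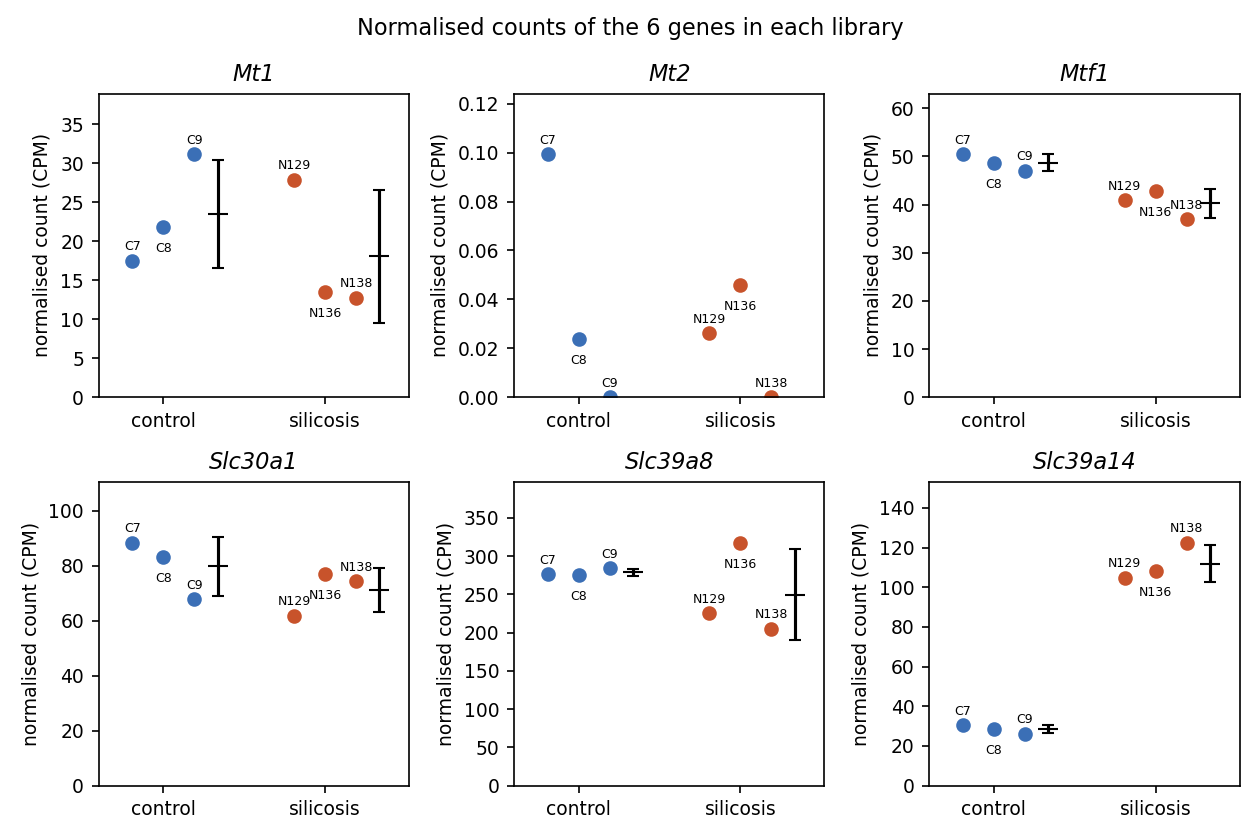
Normalised counts (CPM, vertical axes starting at 0 and scaled per gene) of the 6 genes in each of the 3 control (blue) and 3 silicosis (orange) libraries, with black bars for the mean ± SD except for Mt2. The silicosis libraries lie far above the controls for Slc39a14 and below them for Mtf1; the groups overlap for the other 4 genes.

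Slc39a14 stood at 30.4, 28.7 and 26.2 CPM in C7, C8 and C9 and at 105, 108 and 122 CPM in N129, N136 and N138. All 3 silicosis libraries were high and close together, and the groups did not overlap. The means were 28.4 ± 2.10 and 112 ± 9.37 CPM (SD, n = 3), a log2 fold change of 1.97 (SE 0.10, edgeR adjusted p = 9.05e-06). In the authors' deposited table the log2 fold change of Slc39a14 was also 1.97. Its exons overlap no other annotated gene in GRCm38, and 0% of its 50-base windows occur in transcripts of another gene.

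Slc39a8, the other importer of the pair, had more counts than any other of the 6 genes, with 277, 276 and 285 CPM in the controls and 226, 318 and 205 CPM in N129, N136 and N138. N136 lay above every control and the other two silicosis libraries below, so the groups overlapped. The spread was 1.75% of the mean among controls and 23.9% among silicosis libraries, and the log2 fold change was -0.16 (SE 0.15, edgeR adjusted p = 0.45). This value depended on which silicosis library was left out. Without N136 the log2 fold change was -0.38 and the edgeR adjusted p was 0.016. Without N129 it was -0.094 and without N138 it was -0.036, with no call in either.

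Within a library, counts of one gene can be set against another without any scaling. The count ratio of Slc39a14 to Slc39a8 was 0.110, 0.104 and 0.0922 in C7, C8 and C9 and 0.464, 0.340 and 0.596 in N129, N136 and N138. Every silicosis ratio exceeded every control ratio, with means differing by 2.16 on the log2 scale, or 4.47-fold. By the exact two-sided permutation test p was 0.1, the smallest that 3 against 3 allows, and 0.3 adjusted over the 3 ratios compared.

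Slc30a1, the plasma membrane exporter, stood at 88.4, 83.4 and 67.8 CPM in the controls and 61.9, 77.1 and 74.4 CPM in silicosis. C9 lay among the silicosis libraries, and the log2 fold change of -0.17 (SE 0.13, edgeR adjusted p = 0.346) did not pass. Mtf1 stood at 50.5, 48.6 and 47.1 CPM in C7, C8 and C9 and at 40.9, 42.8 and 37.0 CPM in N129, N136 and N138. Every silicosis library was below every control, as for 47.7% of all tested mRNAs whose groups did not overlap in either direction. The Mtf1 log2 fold change was -0.27 (SE 0.10, edgeR adjusted p = 0.0561), and by the authors' deposited table it was -0.28 with an adjusted p of 0.0497. The call of Mtf1 thus sat at the threshold: it was made by DESeq2 on these counts (log2 fold change -0.28, adjusted p = 0.0447) and by edgeR without N136 (-0.33, adjusted p = 0.0478). Antisense genes overlap 8.09% of Mtf1 exon bases and 8.92% of those of Slc30a1, and no source used here gives the strand setting of the counting.

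Mt1 varied more within each group than between them. It stood at 17.5, 21.8 and 31.2 CPM in C7, C8 and C9 and at 27.9, 13.5 and 12.8 CPM in N129, N136 and N138. N129 lay between C8 and C9 while N136 and N138 were below all 3 controls. The means were 23.5 ± 6.98 and 18.1 ± 8.52 CPM (SD, n = 3), with a log2 fold change of -0.38 (SE 0.31, edgeR adjusted p = 0.383). Without N129 it was -0.84 and the edgeR adjusted p was 0.0362, and without C9 it was -0.13. The count ratio of Mt1 to Slc30a1 ran from 0.198 to 0.459 in controls and from 0.172 to 0.450 in silicosis (exact permutation p = 0.5, adjusted over 3 ratios p = 0.7), and the ratio of both metallothioneins to Mtf1 gave an exact permutation p of 0.7. Both ratios overlapped between groups. With 8 counts of Mt2 against 4928 of Mt1 in all, the ratio to Mtf1 holds almost only Mt1.

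The sum of T and NK cell markers was highest in C9 and N129 within their groups, as Mt1 was. This summed level over 6 genes was 87.2, 88.4 and 111 CPM in C7, C8 and C9 and 109, 77.5 and 48.2 CPM in N129, N136 and N138; 2 of the 6 fell, 0 rose, and none was at 0 in all libraries. The 2 that fell, Gzma and Ncr1, were instead highest in C8 and N136, so the order of the sum was not that of every marker. The same library, N129, was also the highest in silicosis for the summed glucocorticoid response list, at 2035 CPM against 1544 and 1134 CPM in N136 and N138. In C7, C8 and C9 that list had 1940, 1706 and 1573 CPM, the reverse of their Mt1 order. Of that list of 10 genes, which includes the receptor Nr3c1, 2 rose, 3 fell and 5 did not pass. Over all tested mRNAs 15.3% were called higher and 16.5% lower, the shares to set beside both lists. The part of T and NK cells or of the glucocorticoid response in the Mt1 values was not tested.

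Mt2 was almost uncounted. It had 4, 1 and 0 counts in C7, C8 and C9 and 1, 2 and 0 in N129, N136 and N138, 8 in all, against 4928 for Mt1 in the same 6 libraries. A count of 0 allows up to 3 counts, or between 0.0688 and 0.0835 CPM in these libraries, for counting error only. Mt2 was removed by the filter on low counts; with no filter its log2 fold change was -0.67 (SE 1.5, edgeR adjusted p = 0.783), so no difference was detectable at these counts. In the GRCm38 annotation 432 of the 588 exon bases of Mt2, or 73.5%, lie under exons of the antisense gene Gm45774, and 45.2% of the 50-base windows of Mt2 occur in a transcript of another gene. Gm45774 itself had 0, 2, 2, 14, 1 and 0 counts in the lncRNA table, in the order C7 to N138. No exon base of Mt1 is overlapped. The part of this overlap in the low Mt2 count was not tested.

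Of the other metallothioneins, Mt3, best known from brain, had 3, 4 and 5 counts in the controls and 14, 34 and 34 in silicosis. All 3 silicosis libraries were above all controls, at a level far under that of Mt1 even in silicosis, where Mt3 had 0.697 ± 0.299 CPM (SD, n = 3). Its log2 fold change was 2.76 (SE 0.57, edgeR adjusted p = 0.00614), but Mt3 passed the filter on low counts only through its silicosis libraries. With no filter the log2 fold change was 2.75 (edgeR adjusted p = 0.00932). At so few counts this rise is a description only. Mt4, known from stratified epithelium, had 0 counts in each control and 0, 2 and 8 in N129, N136 and N138, and was not tested.

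The remaining zinc transporters were counted by call, beside shares of 15.3% higher and 16.5% lower over all tested mRNAs. Among the Slc30 exporters 8 of 10 listed genes were in the table, 7 were tested, and 3 rose, 0 fell and 4 did not pass, with a median log2 fold change of 0.25 against 0.025 over all tested mRNAs. The risers were Slc30a7, Slc30a4 and Slc30a6, which load zinc into intracellular compartments such as the Golgi and vesicles. Slc30a7 averaged 65.2 ± 4.17 CPM in controls and 89.7 ± 5.34 CPM in silicosis (SD, n = 3), higher by 0.46 on the log2 scale (SE 0.09, edgeR adjusted p = 0.00565). Slc30a4 averaged 36.8 ± 4.36 and 50.5 ± 3.14 CPM. Antisense genes overlap 16.0% of Slc30a7 exon bases. The Slc30a6 call, with a log2 fold change of 0.40, ended when any 1 of the 6 libraries was left out, with edgeR adjusted p between 0.0516 and 0.14.

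**Figure D2:**
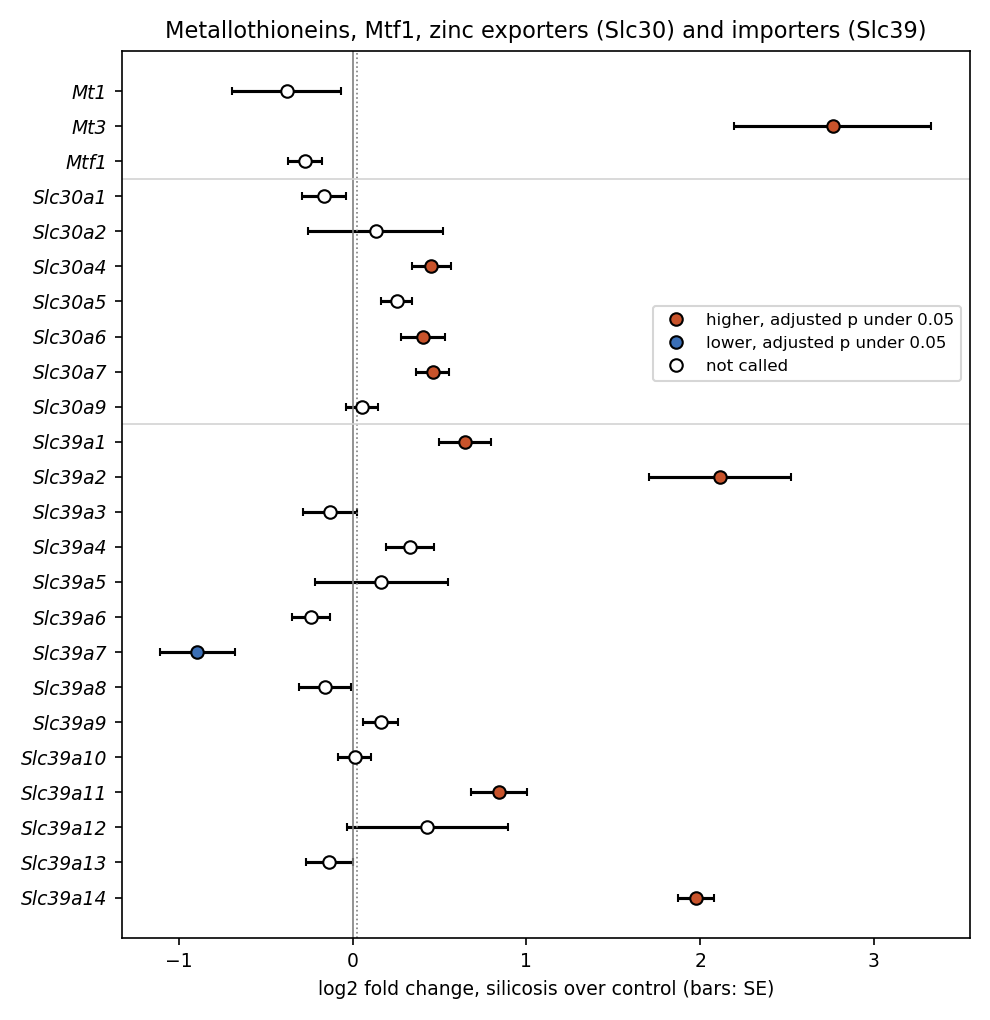
Log2 fold change, silicosis over control, with SE bars for the tested metallothioneins, Mtf1, Slc30 exporters and Slc39 importers; filled points passed edgeR at an adjusted p under 0.05, and the dotted line is the median of 0.025 over all tested mRNAs. Slc39a14 at 1.97 and Slc39a2 at 2.11 stand apart from the other importers, and Slc39a7 is the called gene that was lower. Mt3 passed the filter on low counts only through its silicosis libraries.

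Among the Slc39 importers all 14 listed genes were tested, and 4 rose, 1 fell and 9 did not pass, with a median log2 fold change of 0.16 that moved to 0.071 without C7, 0.095 without C9 and 0.102 without N129. The risers were Slc39a14, Slc39a2, Slc39a11 and Slc39a1, the last singled out after its values were seen. Slc39a2 stood at 3.15, 2.90 and 1.88 CPM in the controls and at 7.93, 19.6 and 6.84 CPM in N129, N136 and N138. N136 was the highest, and the log2 fold change was 2.11 (SE 0.41, edgeR adjusted p = 0.00451), or 1.47 without that library. Slc39a11 rose by 0.84 (SE 0.16) and Slc39a1 by 0.65 (SE 0.15) on the log2 scale. Slc39a7, which releases zinc from the endoplasmic reticulum, fell by 0.89 (SE 0.21, edgeR adjusted p = 0.0125), but 80.7% of its exon bases lie under another annotated gene and 83.9% of its windows occur in other transcripts, so its counts are uncertain. Slc39a1 shares 21.8% of its windows.

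Levels of different genes were compared as CPM per kilobase, using all annotated exon bases of GRCm38, which count unspliced forms too. On that scale Slc39a14 was the 10th of 14 importers in control lung, at 2.70 ± 0.199, and the 4th in silicosis, at 10.6 ± 0.888 CPM per kilobase (SD, n = 3). In controls it lay clear of its neighbours, below Slc39a11 at 4.72 ± 0.566 and above Slc39a7 at 1.99 ± 0.318. In silicosis its libraries overlapped those of the next 2, Slc39a9 at 10.5 ± 0.636 and Slc39a6 at 9.81 ± 0.839, while Slc39a4 above it was at 29.5 ± 4.88. Slc39a11 in N136, at 10.41, also lay above Slc39a14 in N129 and N136, at 9.935 and 10.25. The share of Slc39a14 in the summed importer level was 1.84%, 1.61% and 1.63% in C7, C8 and C9 and 5.40%, 4.41% and 6.66% in N129, N136 and N138. Slc39a8 ranked second in both groups, with 36.4 ± 0.636 and 32.6 ± 7.80 CPM per kilobase, and its share was between 21.3% and 24.3% in controls and between 15.4% and 17.8% in silicosis. Slc30a1 ranked first among exporters in both groups, at 15.2 ± 2.05 and 13.6 ± 1.55 CPM per kilobase, with 30.2% to 34.1% of the summed exporter level in controls and 23.8% to 26.7% in silicosis.

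**Figure D3:**
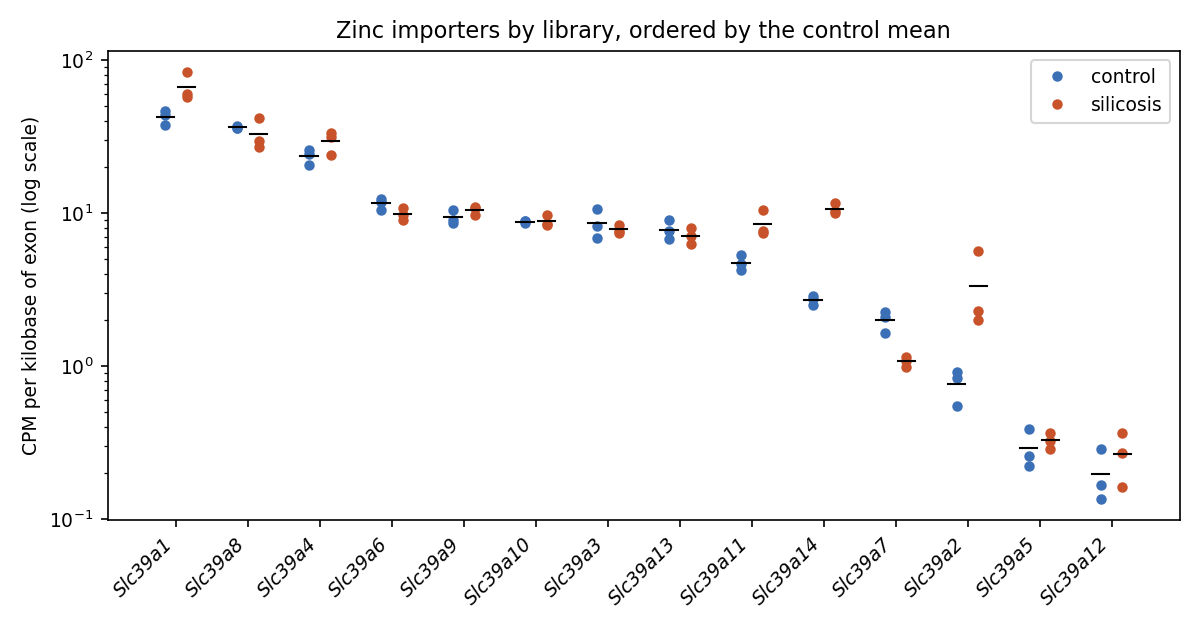
Zinc importers (Slc39 genes) in order of their control mean, as CPM per kilobase of exon on a log axis; points are libraries and short lines are means. Slc39a14 moves from about 2.70 to 10.6 while Slc39a8 stays near the top with wider scatter in silicosis.

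Other genes described as depending on Mtf1 went both ways: of 6 tested, 2 rose, 1 fell and 3 did not pass, with a median log2 fold change of 0.14. Of all tested mRNAs, 31.8% were called, 15.3% higher and 16.5% lower, the shares to set beside each list here. Slc40a1, the iron exporter ferroportin, was 2.56-fold higher, from 16.1 ± 1.42 to 41.3 ± 5.46 CPM. Ndrg1, a stress-response gene, rose by 0.59 (SE 0.15) and Csrp1, a LIM-domain protein, fell by 0.42 (SE 0.10) on the log2 scale. The Ndrg1 call ended without C7 or C8 (edgeR adjusted p = 0.0731 and 0.0665), and that of Csrp1 without C8 or N129 (0.0561 and 0.0565). Of 12 copper-handling genes, which share metal ligands with metallothioneins, 3 rose, 3 fell and 6 did not pass (median 0.25). Steap4, a metalloreductase, rose by 2.77 (SE 0.26) and ceruloplasmin, Cp, by 0.82 (SE 0.11), whereas the copper-zinc superoxide dismutases Sod1 and Sod3 fell by 1.03 (SE 0.10) and 0.84 (SE 0.10). Of the listed proteins that bind zinc or other metals outside cells or in granules, the 3 tested, S100a8, S100a9 and Ltf, all rose, S100a8 by 2.30 (SE 0.27). S100a8 and S100a9 are also neutrophil markers and 2 of the 4 risers of that list, whose sum was 102 to 185 CPM in controls and 301 to 457 CPM in silicosis; the part of neutrophils in this rise was not tested.

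Slc39a14 and metallothioneins are both known targets of interleukin-6 signalling. Slc39a14 rose, while Mt1 did not pass (log2 fold change -0.38, edgeR adjusted p = 0.383). The part of this signalling in either was not tested. Its list had 7 risers among 12 genes, 1 that fell and 4 that did not pass (median log2 fold change 0.80). Of all tested mRNAs, 15.3% were called higher and 16.5% lower, the shares to set beside each list here. Socs3, the feedback inhibitor of the pathway, averaged 40.6 ± 3.09 CPM in controls and 118 ± 25.9 CPM in silicosis, a rise of 1.53 on the log2 scale (SE 0.16), and the receptor Il6ra fell by 0.32 (SE 0.08), a call lost without C7, C8 or N129 (edgeR adjusted p between 0.0546 and 0.0788). Of 8 heavy metal and oxidative stress genes 5 rose, 0 fell and 3 did not pass (median 0.77), among them Srxn1, sulfiredoxin, with 1.38 (SE 0.15). The glucocorticoid list had a median of 0.033. Its member Sgk1, a kinase, rose by 1.14 (SE 0.16), and Klf9, a transcription factor, fell by 0.84 (SE 0.10). Fkbp5, a chaperone induced by glucocorticoids, was called higher at 0.58 (SE 0.19), but not without C7, C9, N129 or N136 (edgeR adjusted p between 0.0954 and 0.145).

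**Figure D4:**
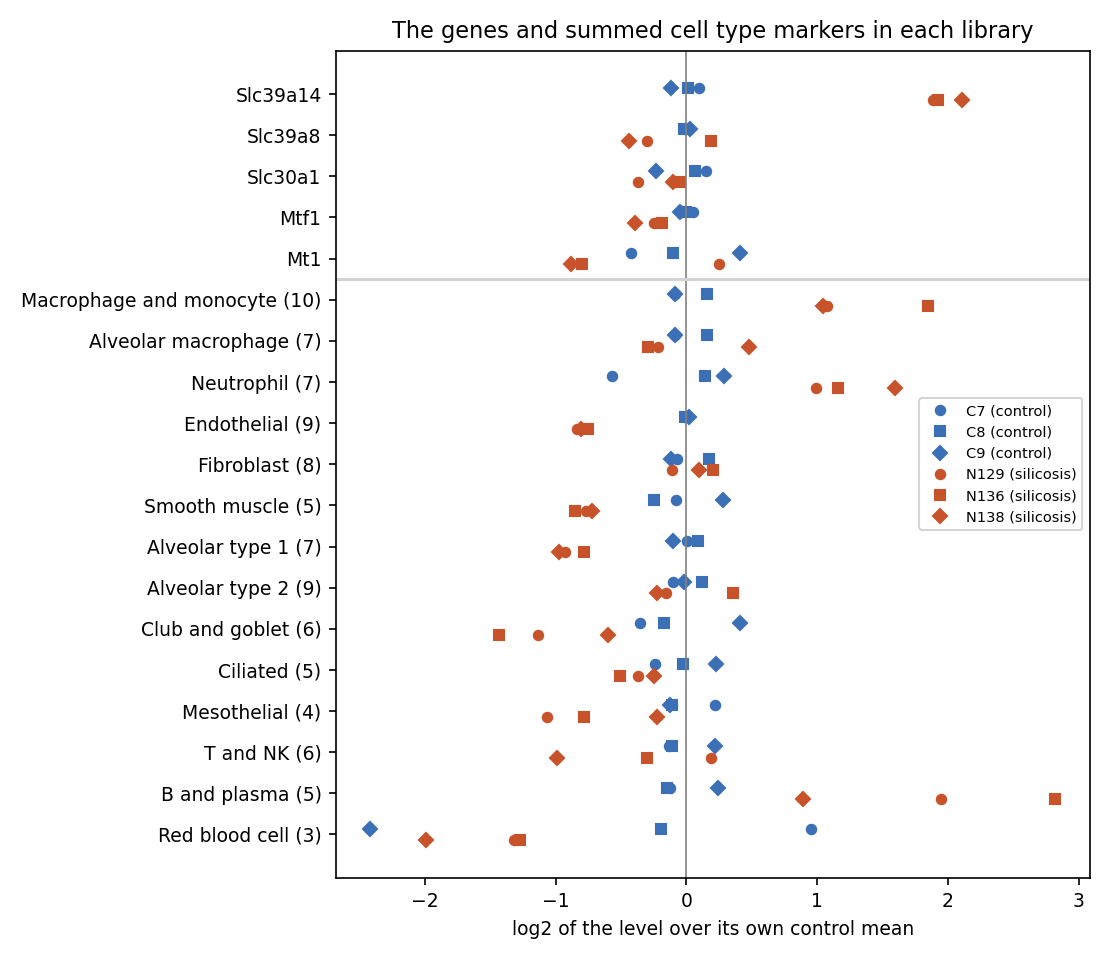
Log2 of each library's level over its own control mean, for 5 of the genes (top) and for the summed CPM of cell type marker lists with the number of genes in brackets; colours are groups and symbols are libraries. Slc39a14 is as high in N138 as in N129 and N136, Slc39a8 is highest in N136, and Mt1 is highest in C9 and N129.

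Several marker lists moved with the group, beside 15.3% of all tested mRNAs called higher and 16.5% lower. Lung identity was clear, with alveolar type 2 markers summing to between 16060 and 24030 CPM in all 6 libraries and 3 liver markers to at most 9.47 CPM. Of 10 macrophage and monocyte markers 9 rose and 0 fell, and their sum was between 2996 and 3560 CPM in controls and between 6586 and 11440 CPM in silicosis, highest in N136. Of 7 alveolar macrophage markers 1 rose, 3 fell and 3 did not pass. Their sums overlapped, at 474 to 562 CPM in controls and 411 to 701 CPM in silicosis. Of 7 neutrophil markers 4 rose and 0 fell, with sums between 102 and 185 CPM in controls and between 301 and 457 CPM in silicosis, highest in N138. Within silicosis the neutrophil sum had the library order of Slc39a14 (N138, N136, N129 from high to low), and within controls the reverse order. The mesothelial sum had the Slc39a14 order in both groups. It was 90.45, 71.99 and 71.22 CPM in C7, C8 and C9 and 37.22, 45.35 and 66.52 CPM in N129, N136 and N138. Of 4 mesothelial markers 0 rose and 2 fell. Of 9 endothelial markers 8 fell and 0 rose, with sums of 5124 to 5230 CPM in controls and 2886 to 3065 CPM in silicosis. The alveolar type 2 sum was 24030 CPM in N136, against 16830 and 16060 CPM in N129 and N138, the same order as Slc39a8 within silicosis; of 9 markers 0 rose and 1 fell. The macrophage and monocyte sum and the B and plasma cell sum (571, 1045 and 273 CPM in N129, N136 and N138) had that order too. So did the sums of alveolar type 1, red blood cell and liver markers, so the order was not particular to any cell type. Fibroblast sums overlapped, at 4041 to 4940 and 4063 to 5034 CPM, with 3 of 8 markers higher and 4 lower. No marker of these lists was at 0 in all libraries, and the part of cell makeup in the values of the 6 genes was not tested.

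Genes nearest in pattern were found by the root mean square difference of log2 CPM over the 6 libraries, each gene centred on its control mean, among 14179 mRNAs. This is a description of few libraries, in which a group difference, where there is one as for Slc39a14, carries much of the likeness. For Slc39a14 they were Procr, Gas2l3 and Plau, with differences of 0.155, 0.166 and 0.178. Procr, the protein C receptor, stood between 3.37 and 3.68 CPM in the controls and between 12.9 and 16.5 CPM in silicosis, and Plau, the urokinase, rose from between 10.6 and 11.8 to between 34.3 and 49.1 CPM. For Mt1 the nearest were Fgf13, Lef1 and Tcf7, at 0.160, 0.187 and 0.215; Lef1 stood at 26.4, 24.3 and 37.3 CPM in C7, C8 and C9 and at 31.7, 14.1 and 15.1 CPM in N129, N136 and N138. C9 and N129 were the highest library of their group for both Mt1 and Lef1. Slc39a8 was nearest to Gja4, Stoml2 and Naa38 (0.050, 0.0621 and 0.0628), Slc30a1 to Rgmb, Slc2a8 and Gpm6a (0.0484, 0.0502 and 0.0534), and Mtf1 to Mfng, Smim10l1 and Samd14 (0.0332, 0.0332 and 0.0369). Gja4, a gap junction protein of arterial endothelium, stood at 58.2 CPM in N136 and at 41.6 and 39.6 CPM in N129 and N138, with 49.8 to 52.9 CPM in controls.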

How the data were processed

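Lung RNA was extracted with Trizol, per the labels' protocols. Per the submitters' processing notes the build was GRCm39 and the tools included DESeq2 1.36.0, featureCounts 2.0.0, Bowtie2, HISAT2 and Trimmomatic 0.39, whose roles are not listed. Annotation and strand setting were left unstated by these sources. Raw counts per gene and library were deposited by the authors, with a comparison table with log2 fold changes, their standard errors (entered as a score) and p-values, per the file headers. The lncRNA counts were used for antisense genes only; circRNA tables were not analysed here.

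Counts of 6 libraries were fitted with edgeR 4.0.16 in R 4.3.3 (filterByExpr, TMM, group as the only term, two-sided test). The filter kept 15808 of 17973 mRNAs, holding 99.98% of counts. SE is the log2 fold change divided by the root of F. Libraries of a group were distinct (chi-square per degree of freedom 15.5 to 82.0). Ratios were tested by exact permutation; Mt2 over Mt1 was planned but not made, since Mt2 was at 0 in 2 libraries, so 3 ratios were compared. Exon overlaps and 50-base windows, taken every 5 bases of the longest transcript, used GENCODE M21 on GRCm38, an earlier build than the authors'. Promoters are RefSeq's on GRCm38.p6. The code was tested on simulated counts.

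The genes and lists were chosen with earlier results of these data known. The naming rule took the 6 genes, the 3 called genes with the lowest p per direction of the Slc30 and Slc39 lists and 2 of each other list, and 3 nearest patterns per gene; not every one is discussed. As alternatives, limma-voom (limma 3.58.1), DESeq2 1.42.0, its size factors inside edgeR, all genes unfiltered and each library left out were run, with 10 added to ratio counts and a shorter promoter window as further ones.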

Additional observations from a re-analysis of the deposited data

How the results depend on the processing

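No paired analysis was possible because the groups share no replicate numbers. Slc39a14 was higher under all 10 alternatives, with a log2 fold change between 1.91 and 2.02 with a library left out. DESeq2 called 1 of the 6 genes lower, Mtf1 (log2 fold change -0.28), where edgeR called 0; with a library left out the number was 0 to 2. Over those exclusions the log2 fold change ran from -0.84 to -0.13 for Mt1, -0.33 to -0.22 for Mtf1 and -0.38 to -0.036 for Slc39a8 (without N136 and without N138). The median of the importers ran from 0.071 to 0.232 and their lower calls from 1 to 2. The differences in log2 ratio ran from -0.73 to 0.066 for Mt1 over Slc30a1 and from -0.51 to 0.087 for both metallothioneins over Mtf1, reversing without C9 and, for the second (0.045), without N136. The cause of these changes was not tested. Of 26 other named genes, 21 kept their call under every alternative; the exceptions are given above. The 8 counts of Mt2 and 10 of Mt4 allow no comparison between groups, and what keeps the Mt2 count low was not tested.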
